A study of Mus musculus with 12 samples.

Results

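The enteric glia genes are 7 genes, Cdh19, Sox10, S100b, Gfap, Entpd2, Foxd3 and Gfra2, that were taken by symbol from a table of 18514 genes measured in mouse colorectal tissue. All 7 passed the filter on low counts and are among the 15484 genes tested. The list was chosen by values of these data, because Cdh19 was higher in swimming than in sedentary mice that received no carcinogen. That contrast, Ctrl_Swim vs Ctrl, is therefore given below as a description of the members, and p-values printed for them in it are not tests.

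RNA was sequenced in 12 libraries from male C57BL/6 mice, with 3 libraries in each of 4 groups. The labels do not say that each library is a separate mouse, and p-values measure only the spread between these libraries. The mice were 4 weeks old when purchased, no genetic modification is named for them, and their age at sampling is not given in the sources used here. Ctrl mice received neither carcinogen nor swimming. Ctrl_Swim mice swam for up to 90 min per day. Model mice received azoxymethane (AOM), a carcinogen, once at 10 mg/kg by intraperitoneal injection, followed by 3 cycles of drinking water with 2% dextran sulfate sodium (DSS), an agent that injures the colonic epithelium and causes colitis. Model_Swim mice received AOM/DSS and swam under the same schedule. Training began before AOM and continued to the end, and untrained mice were placed in shallow water. The colon was resected between cecum and rectum, and the sources used here do not say how much muscle wall or tumor each piece held.

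Enteric glia are neural crest derived cells that surround the neurons of the myenteric and submucosal plexuses and extend into the mucosa. Sox10 and Foxd3 are transcription factors of the neural crest lineage, and Sox10 is kept in mature glia. S100b and Gfap, a calcium-binding protein and an intermediate filament protein, are the usual markers of these cells. Cdh19 is a type II cadherin of glial precursors and glia, Entpd2 is a cell-surface enzyme that hydrolyzes extracellular ATP, and Gfra2 is the neurturin receptor subunit, which signals with Ret and is carried by enteric neurons as well.

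In the RefSeq annotation of GRCm38.p6, Cdh19 lies at chr1:110888002-110977601 on the minus strand, Sox10 at chr15:79154913-79164490 on the minus strand and S100b at chr10:76253836-76261319 on the plus strand. Gfap lies at chr11:102887336-102897200 on the minus strand, Entpd2 at chr2:25395874-25401323 on the plus strand, Foxd3 at chr4:99656299-99658671 on the plus strand and Gfra2 at chr14:70890107-70979840 on the plus strand. The 7 genes are thus on separate chromosomes. In the GENCODE annotation of GRCm38, 612 exon bases of Entpd2 (28.8% of its exon bases) are shared with Npdc1 on the same strand, so its counts are uncertain there. Foxd3 shares 89 exon bases (3.83%) with the miRNA gene Gm23366. No exon overlap was found for the other 5 genes.

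S100b and Gfap were the members with an adjusted p under 0.05 between Model and Ctrl, and the 250 bases before their RefSeq start sites are shown for that reason, read 5′ to 3′ along each gene. The S100b stretch is chr10:76253586-76253835 on the plus strand and the Gfap stretch is chr11:102897201-102897450 on the minus strand, both in GRCm38.p6. Capitals mark the CCAAT motif on either strand, which reads ATTGG where it lies on the other strand.
S100b: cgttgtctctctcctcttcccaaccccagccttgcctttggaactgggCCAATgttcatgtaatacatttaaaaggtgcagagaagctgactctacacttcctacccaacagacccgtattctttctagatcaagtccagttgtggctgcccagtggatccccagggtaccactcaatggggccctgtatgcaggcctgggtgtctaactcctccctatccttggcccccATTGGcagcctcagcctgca
Gfap: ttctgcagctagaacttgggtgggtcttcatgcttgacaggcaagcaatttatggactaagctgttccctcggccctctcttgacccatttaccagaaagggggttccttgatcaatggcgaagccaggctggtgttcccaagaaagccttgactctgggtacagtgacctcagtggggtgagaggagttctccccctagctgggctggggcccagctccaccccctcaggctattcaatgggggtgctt
The S100b stretch held CCAAT 2 times, with first letters 202 and 20 bases before the start, and the Gfap stretch held none. Promoter sequences of Entpd2 and Foxd3 were also searched and held none. Of 32851 RefSeq promoter stretches, each the 250 bases before a start, 33.8% held CCAAT on either strand. The SOX motifs ACAAAG and ACAATG, searched on both strands, were in none of the 4 upstream stretches, while 16.5% and 10.7% of all such stretches held them and 25.2% held either.

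Total counts per library ranged from 17256953 to 19451055, and a count of 3, the limit that a count of 0 allows, is between 0.154 and 0.174 CPM (counts relative to the library's TMM-scaled total, the unit of all levels below unless FPKM is named). This limit covers counting error only. Among members, the counts per library ran from 15 to 55 for Foxd3 and from 18 to 79 for S100b, against 436 to 607 for Entpd2. Markers of other tissues set some libraries apart. The summed level of 21 pancreatic acinar genes was 51814 CPM in Model replicate 1 and 25343 CPM in Model replicate 3, against 207 to 498 CPM in the other 10 libraries. The 14 squamous epithelium genes summed to 6.12 to 11.3 CPM in 5 libraries and to 100 to 2069 CPM in the other 7, which include 2 of 3 Ctrl_Swim, 2 of 3 Model and 3 of 3 Model_Swim libraries. The 10 colon epithelium genes were detected in every library, with sums of 7816 to 22782 CPM. The part of these tissues in the results below was not tested, and values without Model replicates 1 and 3 are given for S100b, Gfap and the list genes that passed in Model vs Ctrl.

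Per transcript length, Entpd2 stood far above the other members. In Ctrl mice its level was 13.4 ± 0.75 FPKM (SD, n = 3). Gfra2 (1.78 ± 0.26), Sox10 (1.64 ± 0.15), S100b (1.48 ± 0.15) and Gfap (1.46 ± 0.053 FPKM) followed, each overlapping its neighbor in this order. Foxd3 (0.697 ± 0.14) and Cdh19 (0.615 ± 0.037 FPKM) were the lowest and overlapped each other. Entpd2 did not overlap with Gfra2, nor Gfap with Foxd3. FPKM were scaled to total counts, and on that scale the median gene lay 0.11 higher in Model vs Ctrl and 0.13 higher in Ctrl_Swim vs Ctrl (log2) than with TMM, so fold changes are given on the TMM scale.

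Cdh19 was at 5.02, 5.34 and 4.84 CPM in the Ctrl libraries and at 10.8, 10.3 and 9.81 CPM in the Ctrl_Swim libraries. It was at 3.43, 3.54 and 6.14 CPM in Model and at 5.45, 4.73 and 4.45 CPM in Model_Swim. Every Ctrl_Swim library thus lay above the other 9, and Model replicate 3 lay above all Ctrl and Model_Swim libraries. The fold change of Ctrl_Swim vs Ctrl was 2.04, with a log2 value of 1.03 ± 0.21 (SE), and this is the value by which the list was chosen. Its edgeR adjusted p of 0.0499, which belongs to that choice and tests nothing here, lay just inside the threshold. The nearest member outside the threshold was Gfra2, with 0.184. Cdh19 stayed past both cutoffs in 8 of 24 alternatives and in 3 of the 12 that left out 1 library, those without a Model library, with adjusted p-values from 5.6e-04 to 0.287. Of the 8, 1 is the main fit read without the fold cutoff, so it could not differ. The call was lost without any 1 of the Ctrl, Ctrl_Swim or Model_Swim libraries. Called here means past 2-fold in either direction with an adjusted p below 0.05. In this comparison 0.168% of all genes tested were called, and of the members the 1 called is Cdh19, by which the list was chosen, so nothing is read from that count. Of the 6 others 0 were called.

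In mice that had received AOM/DSS, which the choice of Cdh19 did not use, the gene was not detectably higher with swimming. The log2 fold change of Model_Swim vs Model was 0.16 ± 0.21, with a 95% interval of -0.26 to 0.58 and an adjusted p of 0.792 (edgeR quasi-likelihood test, Benjamini-Hochberg). Without Model replicate 3, the highest of its group, the value was 0.49. The swimming difference was 0.87 lower on the log2 scale in AOM/DSS mice than in the others (-0.87 ± 0.30), given without a test because it contains the contrast used for the choice. Cdh19 in Model_Swim was lower than in Ctrl_Swim by a log2 value of -1.08 ± 0.21, and Model vs Ctrl gave -0.21 ± 0.21. Both are descriptions, since they share mice with the first contrast.

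**Figure D1:**
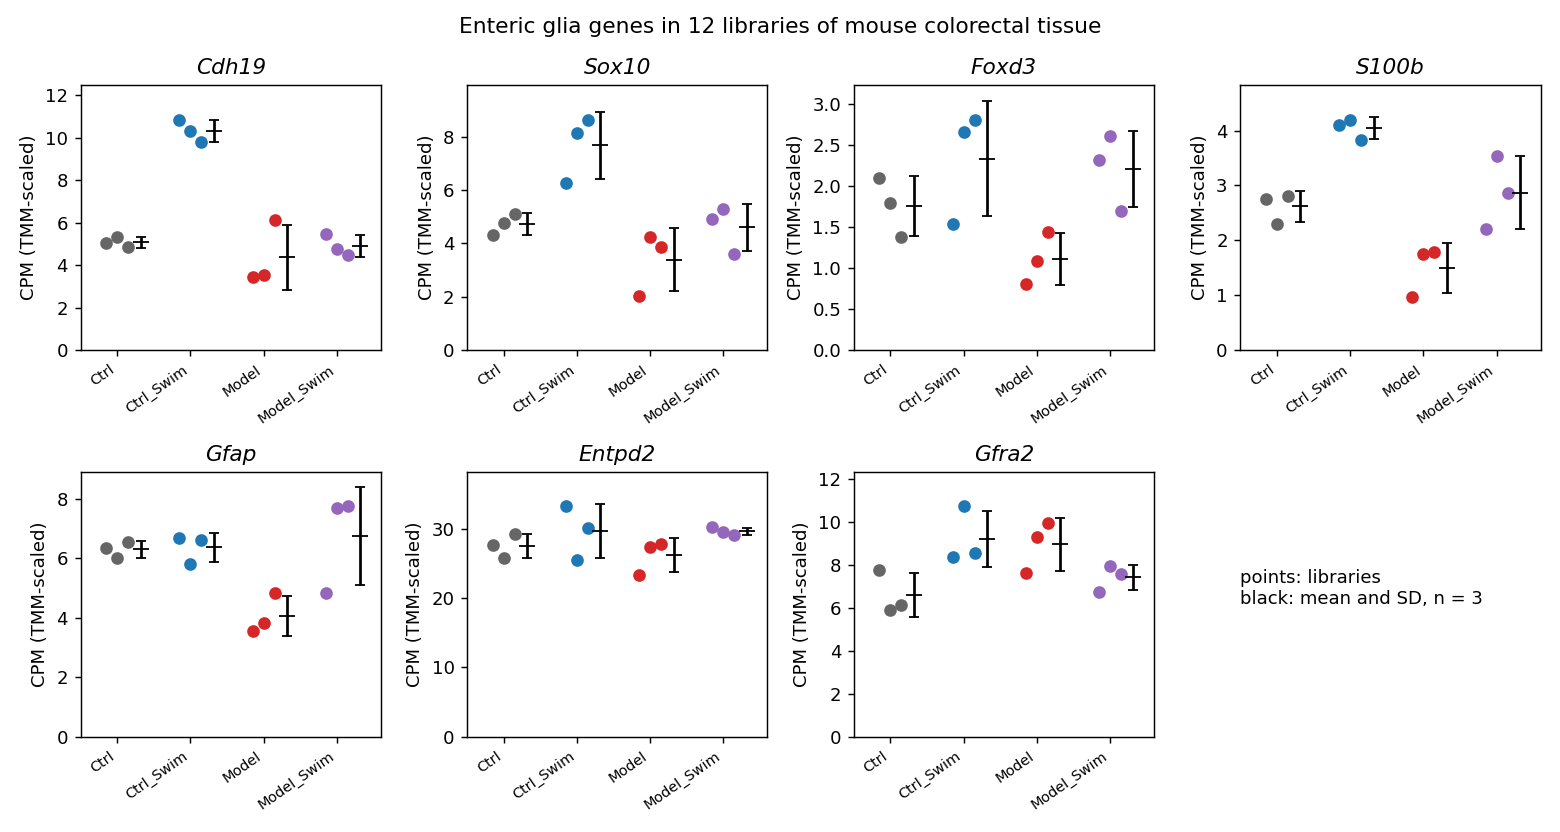
Levels of the 7 enteric glia genes in CPM (TMM-scaled, vertical axis from 0) by group, with 1 point per library and the mean and SD (n = 3) in black. The Ctrl_Swim points of Cdh19 sit between 9.81 and 10.8 CPM, above all others, and the Model points of S100b and Gfap sit below their Ctrl points.

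Among the transcription factors, Sox10 measured 4.31, 4.74 and 5.11 CPM in Ctrl and 6.25, 8.14 and 8.64 CPM in Ctrl_Swim. It measured 2.04, 4.25 and 3.85 CPM in Model and 4.90, 5.28 and 3.6 CPM in Model_Swim. The Ctrl_Swim libraries were above those of every other group and the Model libraries were below the Ctrl libraries. Sox10 did not pass the test in Model vs Ctrl (log2 -0.48 ± 0.27, adjusted p = 0.180), in Model_Swim vs Model (0.44 ± 0.27, adjusted p = 0.50, and -0.068 with the acinar genes as a covariate) or in Model_Swim vs Ctrl_Swim (-0.74 ± 0.26, adjusted p = 0.124), all by edgeR. In that last comparison the adjusted p was under 0.05 in 2 of 24 alternatives, at 0.0384 without Model replicate 1 and 0.0302 without Model replicates 1 and 3, which are in neither group compared, and it ranged up to 0.422.

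Foxd3 was the least counted member over the 12 libraries, with 2.10, 1.80 and 1.37 CPM in Ctrl, 1.53, 2.66 and 2.81 CPM in Ctrl_Swim, 0.80, 1.09 and 1.43 CPM in Model and 2.31, 2.61 and 1.7 CPM in Model_Swim. The Model_Swim libraries lay above the Model libraries, by a log2 value of 0.99 ± 0.34, but the edgeR adjusted p was 0.263. Model vs Ctrl (-0.66 ± 0.34, adjusted p = 0.153) overlapped in 1 library of each group. The ratio of Foxd3 to Sox10 was 0.47 to 0.49 in Model_Swim, and was 0.25 to 0.49 over the other groups.

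The glial proteins S100b and Gfap were lower in Model than in Ctrl. S100b was at 2.76, 2.29 and 2.80 CPM in Ctrl and at 0.96, 1.74 and 1.78 CPM in Model, with no overlap. Its fold change was 0.572 (log2 -0.81 ± 0.27, edgeR adjusted p = 0.0428). Gfap was at 6.35, 6.0 and 6.54 CPM in Ctrl and at 3.54, 3.81 and 4.82 CPM in Model, again with no overlap, and its fold change was 0.645 (log2 -0.63 ± 0.20, edgeR adjusted p = 0.0321). Neither reached the fold cutoff, so that 0 of the 6 members other than Cdh19 were called in Model vs Ctrl, where 7.43% of all genes tested were called. On the adjusted p alone 2 of 6 passed, S100b and Gfap, against 32.7% of all genes, and at an unadjusted p under 0.05 it was 3 of 6 (with Gfra2), against 45.2%. A lower level without overlap was seen in 3 of 6 (Sox10, S100b, Gfap), against 23.2% of all genes. In bulk tissue, fewer cells of a type and less RNA per cell cannot be told apart.

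The adjusted p of S100b and Gfap depends on single libraries, and leaving out any 1 Ctrl library or Model replicate 1 or 2 raised both above 0.05. Without both libraries rich in pancreatic transcripts, Model replicates 1 and 3, the log2 fold change of Model vs Ctrl was -0.60 for S100b (edgeR adjusted p = 0.190) and -0.74 for Gfap (adjusted p = 0.0690), the remaining Model library being assumed to vary like the other groups. Over 24 alternatives the adjusted p stayed under 0.05 in 7 for S100b (range 0.0360 to 0.343) and in 13 for Gfap (range 0.0150 to 0.168). Both counts include the main fit read without the fold cutoff, which could not differ.

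In Model_Swim, S100b was at 2.20, 3.54 and 2.86 CPM and Gfap at 4.84, 7.67 and 7.74 CPM, both above every Model library. S100b was 1.91-fold higher than in Model (log2 0.94 ± 0.27) and Gfap was 1.66-fold higher (log2 0.73 ± 0.20). Their adjusted p-values were 0.213 and 0.188 by edgeR and 0.0842 and 0.0551 by DESeq2, so that neither passed. Gfap passed in 1 of 24 alternatives, without Model replicate 3 (log2 0.88, adjusted p = 0.0385). In Ctrl_Swim the pair diverged. S100b was at 4.11, 4.2 and 3.83 CPM, above all other libraries, while Gfap at 6.68, 5.80 and 6.59 CPM overlapped its Ctrl libraries. The ratio of Gfap to S100b was accordingly 1.38 to 1.72 in Ctrl_Swim, and 2.17 to 3.67 in the other 9 libraries.

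No comparison moved Entpd2 by more than 0.18 on the log2 scale. It was at 27.7, 25.7 and 29.2 CPM in Ctrl, 33.3, 25.5 and 30.2 CPM in Ctrl_Swim, 23.4, 27.4 and 27.8 CPM in Model and 30.2, 29.5 and 29.1 CPM in Model_Swim. The Model vs Ctrl value was -0.07 ± 0.10 on the log2 scale, with a 95% interval of -0.27 to 0.13 and an edgeR adjusted p of 0.621, and it turned to 0.04 on the FPKM scale. All 3 Model_Swim libraries lay above the 3 Model libraries, by a log2 value of 0.18 ± 0.10 (edgeR adjusted p = 0.485). The counting depth of this gene was the highest of the members and its interval was the narrowest.

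The receptor gene Gfra2 was at 7.78, 5.89 and 6.16 CPM in Ctrl, 8.38, 10.7 and 8.59 CPM in Ctrl_Swim, 7.61, 9.32 and 9.99 CPM in Model and 6.77, 7.94 and 7.58 CPM in Model_Swim. Its Model vs Ctrl value was 0.44 ± 0.16 on the log2 scale, just outside the threshold (edgeR adjusted p = 0.0601), and 1 library of each group overlapped. That adjusted p was under 0.05 in 7 of 24 alternatives, as many as for S100b. Gfra2 was the only member with a positive value in Model vs Ctrl. It was also the only one with a negative value in Model_Swim vs Model, -0.27 (adjusted p = 0.503). Model_Swim vs Ctrl_Swim was -0.31 (adjusted p = 0.289). The ratio of Gfra2 to Sox10 was 2.19 to 3.74 in Model and 0.99 to 2.10 in the other 9 libraries.

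**Figure D2:**
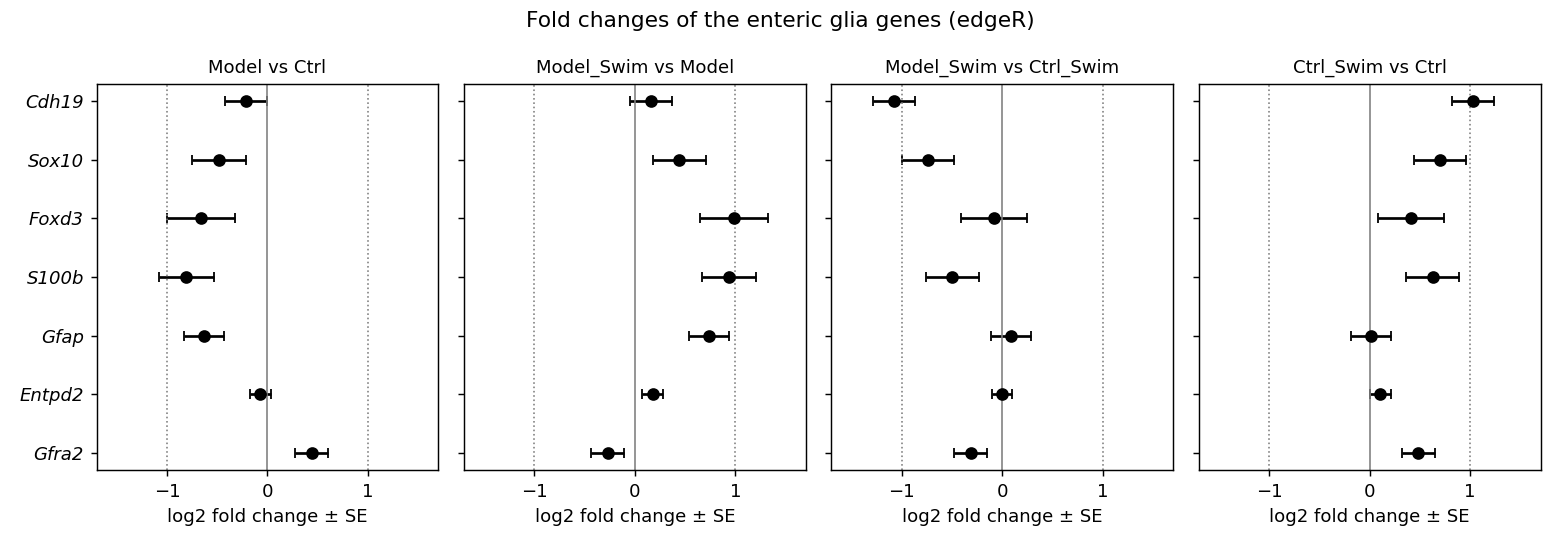
Log2 fold changes of the 7 enteric glia genes with their standard errors (horizontal axis, edgeR) in the 4 comparisons, with dotted lines at the 2-fold cutoff. In Model vs Ctrl 6 of 7 values are negative and Gfra2 is at 0.44, and in Ctrl_Swim vs Ctrl, where the list was chosen, Cdh19 is at 1.03 and Gfap at 0.01.

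Over the 7 members the median log2 fold change was -0.48 in Model vs Ctrl, 0.44 in Model_Swim vs Model, -0.31 in Model_Swim vs Ctrl_Swim and 0.48 in Ctrl_Swim vs Ctrl, while the median over all genes tested lay between -0.010 and 0.0055. Without Cdh19, by which the list was chosen, the members' median was -0.56, 0.59, -0.20 and 0.45 in the same order. These comparisons share groups and are not independent of each other. In Model_Swim vs Model 0 of 7 members were called by edgeR and by DESeq2, against 0.071% of all genes by edgeR. At an unadjusted p under 0.05 it was 3 of 7 members (S100b, Gfap and Foxd3), against 13.6%, and 4 of 7 (with Entpd2) were higher without overlap, against 8.32%. In Model_Swim vs Ctrl_Swim 0 of the 6 members other than Cdh19 were called by either tool, against 1% of all genes by edgeR. There 1 of 6 (Sox10) had an unadjusted p under 0.05, against 22.4%, and 3 of 6 (Sox10, S100b, Gfra2) were lower without overlap, against 16.5%. In Ctrl_Swim vs Ctrl, the comparison used for the choice, 3 of the 6 members other than Cdh19 were higher without overlap (Sox10, S100b, Gfra2), and 12.6% of all genes were, from which nothing is read.

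The members did not all vary together over the 12 libraries. Pearson's r of log2 CPM was highest between Sox10 and S100b (0.88), between S100b and Gfap (0.83) and between Cdh19 and Sox10 (0.81), and was lowest between Gfap and Gfra2 (-0.19). After removal of the group means, r was 0.64 for Sox10 with S100b, 0.70 for S100b with Gfap and 0.34 for Cdh19 with Sox10. The genes most like Cdh19 among 13999 candidates were Adgrg6 (r = 0.92), Hdac11 (0.92), Wee1 (0.91), Cys1 (0.90) and Lonrf2 (0.90). Those most like the members' mean z-score were St8sia3 and Unc80 (both 0.94), Disp2 (0.94), Syt4 (0.94) and Gdap1 (0.94). All these values share the same libraries and depth and are descriptions.

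Of a wider list of 22 glial genes 21 were tested, and in Model vs Ctrl their median was 0.15, with 17 positive and 4 negative values. Ptprz1, a receptor tyrosine phosphatase of glial cells, was the 1 gene called, against 7.43% of all genes. It was at 9.27, 11.6 and 9.73 CPM in Ctrl and at 43.9, 22.6 and 10.04 CPM in Model, and the groups overlapped (log2 1.32 ± 0.39, edgeR adjusted p = 0.0257). The call was lost when Model replicate 1 or any 1 Ctrl library was left out. Gpm6b, a membrane glycoprotein, was also higher on the adjusted p alone (18.0 against 9.88 CPM, log2 0.87, adjusted p = 0.00132) and L1cam, an adhesion molecule, was lower (169 against 232 CPM, log2 -0.45, adjusted p = 0.0187). The list's summed level was 642 to 647 CPM in Ctrl and 577 to 734 CPM in Model, most of it from L1cam and Erbb3, a neuregulin receptor, both of which other cell types of the colon express.

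In Model_Swim vs Model 0 of the 21 wider glial genes were called by edgeR or DESeq2, with a median of -0.08. At an unadjusted p under 0.05 there were 3, against 13.6% of all genes. In Model_Swim vs Ctrl_Swim 0 were called by either tool, with a median of -0.13, and 5 had an unadjusted p under 0.05, against 22.4% of all genes. In Ctrl_Swim vs Ctrl the median was 0.42 and 0 of 21 passed the adjusted p by edgeR. There 11 were higher and 2 lower without overlap, against 12.6% and 14.9% of all genes. Scn7a, a sodium channel family member of glia, was at 41.9, 41.9 and 41.2 CPM in Ctrl_Swim against 26.5, 27.3 and 27.2 CPM in Ctrl.

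Of 11 myelin and Schwann cell genes 10 were tested, and in Model vs Ctrl 1 was called higher and 1 lower, against 7.43% of all genes. Ncmap, a myelin protein of peripheral nerve, was at 2.57 against 1.26 CPM (log2 1.02 ± 0.32, edgeR adjusted p = 0.0333). Mal, a proteolipid that epithelium also makes, was at 19.6 against 84.3 CPM (log2 -2.10 ± 0.43, adjusted p = 0.00471). Mbp, the major myelin protein, was lower on the adjusted p alone (71.5 against 93.4 CPM, log2 -0.38, adjusted p = 0.00315). In the other 2 comparisons tested 0 were called by edgeR, with 2 at an unadjusted p under 0.05 in each. Over all genes that share was 13.6% in Model_Swim vs Model and 22.4% in Model_Swim vs Ctrl_Swim.

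Genes whose products signal to or from glia, together with the intermediate filament genes Vim and Nes, were a list of 20, with 19 tested. In Model vs Ctrl 6 passed higher and 1 lower on the adjusted p alone. Those higher include Vim and Nes, which are not signaling genes. Of the list 1 was called, Nt5e, the enzyme that makes adenosine from AMP (log2 1.25 ± 0.35, edgeR adjusted p = 0.0192). Over all genes tested 32.7% passed the adjusted p in either direction and 7.43% were called. Nt5e was at 65.5, 53.2 and 64.6 CPM in Ctrl and at 196, 184 and 56.8 CPM in Model, so that Model replicate 3 lay within the Ctrl range. Entpd1, which like Entpd2 hydrolyzes extracellular nucleotides, was at 44.8 against 28.6 CPM in Model vs Ctrl (log2 0.65 ± 0.093, adjusted p = 0.00101) and at 43.1 against 30.5 CPM in Model_Swim vs Ctrl_Swim (log2 0.50, adjusted p = 0.0175). The neuregulin gene Nrg1 was higher in Model (24.5 against 14.6 CPM, adjusted p = 0.00699) and the endothelin gene Edn3 was lower (9.08 against 14.3 CPM, adjusted p = 0.00655). Ret, the signaling partner of Gfra2, was at 19.96 against 21.8 CPM and did not pass (log2 -0.13, adjusted p = 0.458). In Model_Swim vs Model 0 of 19 passed the adjusted p by edgeR, with 2 at an unadjusted p under 0.05, against 13.6% of all genes.

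The summed level of enteric neuron markers had the same highest group and the same lowest library as that of the glia genes. The 22 neuron genes summed to 248 to 290 CPM in Ctrl, 352 to 434 CPM in Ctrl_Swim, 121 to 257 CPM in Model and 245 to 283 CPM in Model_Swim, and the 7 glia genes to 51.8 to 56.0, 67.4 to 71.1, 41.8 to 55.8 and 56.7 to 61.3 CPM. Both sums were highest in the Ctrl_Swim group, without overlap, and both were lowest in Model replicate 1. The glia sum includes Cdh19, by which the list was chosen, so nothing is read from that sum being highest in Ctrl_Swim. Entpd2, whose counts are uncertain, held a mean of 27.5 CPM in Ctrl, where the glia sum had a mean of 54.6 CPM. The neuron genes' median was -0.44 in Model vs Ctrl, 0.45 in Model_Swim vs Model, -0.51 in Model_Swim vs Ctrl_Swim and 0.53 in Ctrl_Swim vs Ctrl. In Ctrl_Swim vs Ctrl 17 of 22 neuron genes were higher without overlap, against 12.6% of all genes, and 0 were called in any of the 4 comparisons by edgeR. On the adjusted p alone, the tachykinin gene Tac1 (log2 -0.45, adjusted p = 0.0494) and the synaptic vesicle gene Syt1 (log2 -0.67, adjusted p = 0.0253) were lower in Model vs Ctrl, and the synaptic gene Snap25 (log2 -0.76, adjusted p = 0.0443) was lower in Model_Swim vs Ctrl_Swim.

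Of the 15 glial, myelin, signaling and neuron list genes with an edgeR adjusted p under 0.05 in Model vs Ctrl, 15 kept their direction without Model replicates 1 and 3. These genes were picked by the same contrast and 1 Model library remains, so kept directions are partly fixed in advance and only effect sizes are given. The log2 value went from 1.02 to 0.80 for Ncmap and from 0.60 to 0.46 for the intermediate filament gene Nes. It went from -0.45 to -0.21 for Tac1 and from 1.25 to 1.57 for Nt5e. For Ptprz1 it went from 1.32 to 1.13, for Gpm6b from 0.87 to 0.83 and for L1cam from -0.45 to -0.53. For Mbp it went from -0.38 to -0.42, for Mal from -2.10 to -1.88 and for Nrg1 from 0.74 to 0.58. For Entpd1 it went from 0.65 to 0.70 and for P2rx7 of the signaling list from 0.41 to 0.55. For Edn3 it went from -0.66 to -0.58, for Vim from 0.50 to 0.40 and for Syt1 from -0.67 to -0.60.

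The 12 smooth muscle genes had medians of -0.07, 0.06, -0.05 and -0.01 in Model vs Ctrl, Model_Swim vs Model, Model_Swim vs Ctrl_Swim and Ctrl_Swim vs Ctrl, and 0 had an unadjusted p under 0.05 in any of them. Their sum was 8779 to 9116 CPM in Ctrl and 8160 to 10676 CPM in Ctrl_Swim. The 5 pacemaker cell genes also had 0 at an unadjusted p under 0.05 (edgeR). The acinar genes summed to 207 to 362 CPM in Ctrl_Swim and to 416 to 498 CPM in Ctrl, alongside the higher Cdh19. Of the 16 tested 13 were lower without overlap, against 14.9% of all genes, while 0 were called by edgeR and 1 had an unadjusted p under 0.05. The reactive and inflammatory genes, 13 tested, had a median of 2.88 in Model vs Ctrl and 9 were called higher there, against 7.43% of all genes called either way. In Model_Swim vs Ctrl_Swim 5 were called higher, against 1% of all genes called either way. Melanocytes also express Sox10, and the 6 melanocyte genes summed to 6.27 to 8.32 CPM with overlap of all groups. In Model vs Ctrl 15 of 16 acinar genes, 2 of 4 pancreatic islet genes and 11 of 14 squamous genes were called higher, and 5 of 10 colon epithelium genes were lower on the adjusted p alone. Over all genes tested 7.43% were called and 32.7% passed the adjusted p there, in either direction. The islet genes called were Ppy and Pdx1, while the islet gene Gcg was lower (means of 47.9 against 70.7 CPM). Ppy and Pdx1 also had higher means in Model_Swim than in Ctrl_Swim (5.69 against 2.53 and 0.667 against 0.265 CPM). The part of neuron content, of inflammation and of acinar RNA in the glia gene values was not tested.

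**Figure D3:**
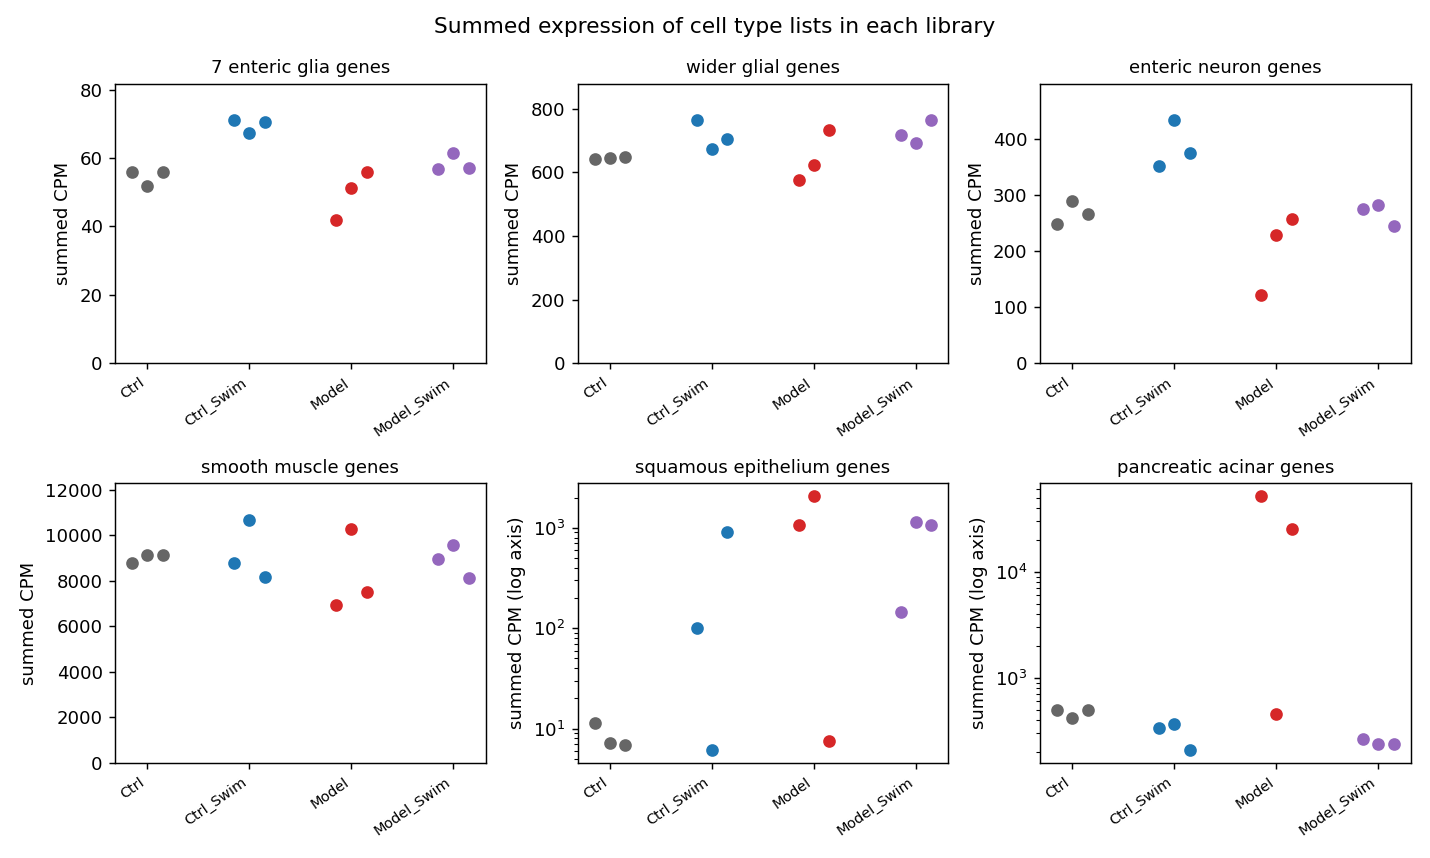
Summed CPM per library (vertical axes, logarithmic for squamous and pancreatic acinar genes) of 6 gene lists by group, with 1 point per library. The glia and neuron sums are highest in Ctrl_Swim (67.4 to 71.1 and 352 to 434 CPM), the smooth muscle sums overlap in all groups, and 2 Model libraries stand out at 51814 and 25343 CPM of acinar genes. The glia sum includes Cdh19, by which the list was chosen in Ctrl_Swim vs Ctrl.

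**Figure D4:**
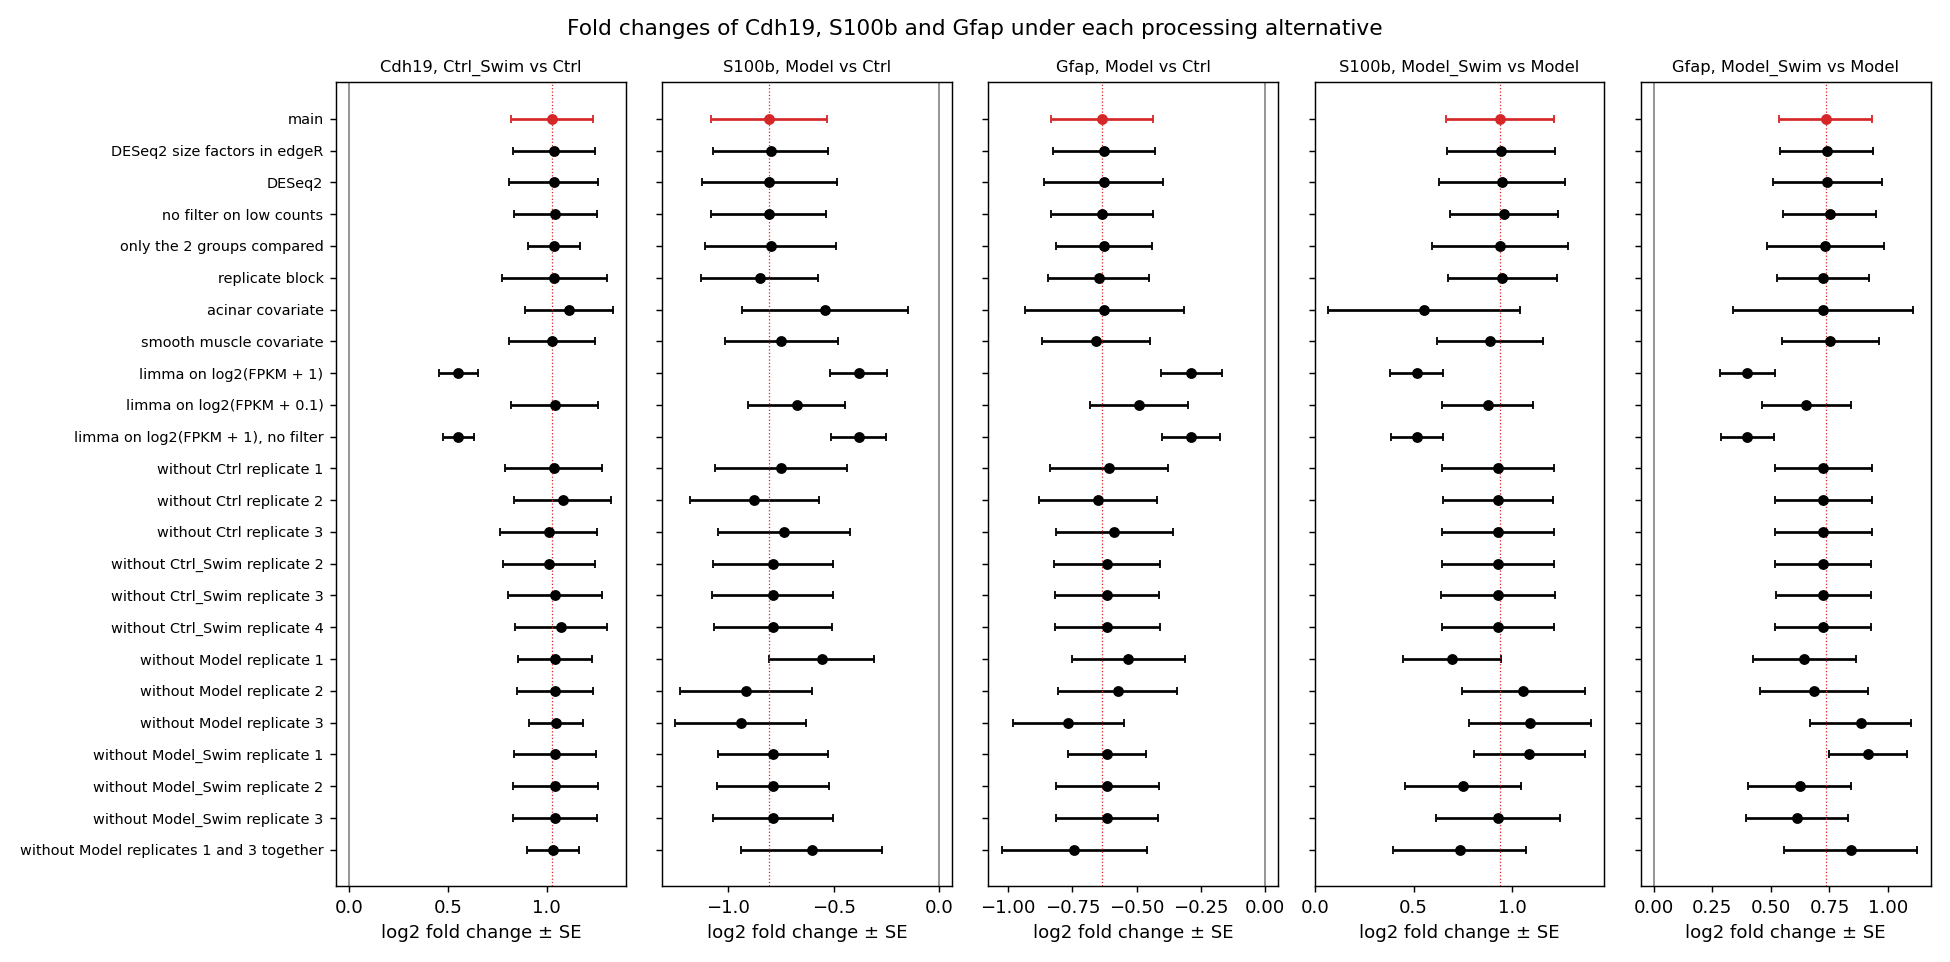
Log2 fold changes with standard errors (horizontal axes) of Cdh19, S100b and Gfap under each processing alternative (rows), with the reported value in red. In the 5 panels, Cdh19 in Ctrl_Swim vs Ctrl and S100b and Gfap in Model vs Ctrl and in Model_Swim vs Model, every value keeps its sign, and those of limma on log2(FPKM + 1) lie nearer to 0.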

How the data were processed

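A TruSeq Stranded mRNA LT kit was used for the 12 libraries, which were read on an Illumina HiSeq X instrument. For RNA extraction the labels name a mirVana kit and the study's methods TRIzol. After trimming (Trimmomatic) and alignment to GRCm38.p6 (HISAT2), the authors deposited raw counts per gene from HTSeq-count. The deposited FPKM values, which the authors computed with Cufflinks, are scaled to transcript length and library size. Within each gene they were proportional to its share of the counts. Tool versions, annotation release and strand setting are not given in the sources used here.

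The test was edgeR's quasi-likelihood test (edgeR 4.0.16, R 4.3.3) in 1 model of the 4 groups, after TMM scaling and filterByExpr (minimum count 10), with Benjamini-Hochberg adjustment over 15484 genes within each comparison. A gene was called at an adjusted p below 0.05 with a change of more than 2-fold either way, the cutoffs of the study. CPM are TMM-scaled, and log2 CPM used a prior count of 2. The standard error is the log2 fold change divided by the root of the F statistic. Alternatives used DESeq2 1.42.0, the study's tool, and limma 3.58.1. The code was tested on simulated data.

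The members, the gene lists and the tests were chosen with earlier results of these data known. Lists were written from general knowledge. By rule, the text names all members, from each list the genes called and the most abundant ones (at most 4 a list), and 5 genes most like Cdh19 and 5 most like the members' mean. The rule's gene naming was not carried out for the lists of other tissues, and list genes named on the adjusted p alone, and Scn7a, Ret and Mbp, were chosen after their values were seen. Positions and promoters came from RefSeq tables of GRCm38.p6 (all 7 members had a position and 4 a promoter) and exon overlaps from GENCODE M21. Groups came from the labels. Libraries within a group differed by far more than sampling noise. Nothing in the labels says that a number pairs mice. One gene of the wider glial list is not reported here by name.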

Additional observations from a re-analysis of the deposited data

Results flagged for a closer look

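Gpm6b of the wider glial list differed in opposite directions with swimming in the libraries of untreated and of AOM/DSS mice, and neither difference passed the edgeR test (adjusted p = 0.0591 and 0.321). It was at 9.49, 10.14 and 10.005 CPM in Ctrl and at 13.3, 13.6 and 18.4 CPM in Ctrl_Swim, so that every library of the swimming group was higher (log2 0.61). It was at 16.6, 17.8 and 19.7 CPM in Model and at 15.1, 14.5 and 13.6 CPM in Model_Swim, so that every library of the swimming group was lower (log2 -0.32). The 2 effects were 0.93 apart on the log2 scale, and this difference was not tested.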

How the results depend on the processing

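The count of members called, without Cdh19 in Model vs Ctrl and Model_Swim vs Ctrl_Swim and with it in Model_Swim vs Model, was 0 under every alternative run, except that the adjusted p alone gave 2 in Model vs Ctrl (S100b at log2 -0.81 and Gfap at -0.63). The 1 wider glial gene called in Model vs Ctrl became 4 with DESeq2, 0 in a fit of only those 2 groups, 3 on the adjusted p alone, 2 with the smooth muscle genes as a covariate and 0 with limma on log2(FPKM + 1), with or without a filter. It ranged from 0 to 4 when 1 library was left out, being 0 without any 1 of the Ctrl libraries, 2 without Ctrl_Swim replicate 4 or Model replicate 2, and 4 without Model replicate 3. It was 2 without Model replicates 1 and 3 together, an alternative chosen after seeing the data. The 1 gene called was another than Ptprz1 with the replicate block (Tfap2b), the acinar covariate (Sox2) and without Model replicate 1 (Dhh). The Cdh19 value of Ctrl_Swim vs Ctrl was 1.11 with the acinar genes as a covariate, 0.55 with limma on log2(FPKM + 1), and 1.01 to 1.08 when 1 library was left out. That pseudocount shrinks low genes.

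Some values changed sign. Entpd2 in Model vs Ctrl became 0.059 with the acinar covariate and 0.039 and 0.041 with limma at pseudocounts of 1 and 0.1 (0.039 also without a filter), and ranged from -0.11 to 0.018 when 1 library was left out. Entpd2 in Model_Swim vs Ctrl_Swim became 0.0017 with DESeq2's size factors, 0.0024 with DESeq2 and 0.035 with the replicate block, and ranged from -0.11 to 0.074 when 1 library was left out. Foxd3 there became 0.083 with the replicate block and ranged from -0.32 to 0.068, and Gfap ranged from -0.033 to 0.27. In Model_Swim vs Model the acinar covariate turned Sox10 from 0.44 to -0.068 and Entpd2 to -0.0082. The low counts of Foxd3 and S100b limit their precision.

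With the replicate number as a block, in which Ctrl_Swim replicate 4 has a number of its own and drops out, the members called, counted in the same way, stayed at 0 in the 3 comparisons, the wider glial genes at 1, 0 and 0, and Cdh19 in Ctrl_Swim vs Ctrl was 1.04, with an adjusted p of 0.287. The S100b adjusted p in Model vs Ctrl became 0.0522. Over all genes the calls went from 1150 to 1109 in Model vs Ctrl, from 11 to 22 in Model_Swim vs Model, from 155 to 18 in Model_Swim vs Ctrl_Swim and from 26 to 1 in Ctrl_Swim vs Ctrl. Libraries with the same number correlated from -0.26 to 0.56 (15 pairs), and 3 of 11 correlated best with their own number. These values gave no sign that the numbers pair the libraries, but a weak pairing could go unseen in them.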
